A study of Caenorhabditis elegans with 2 samples.

Results

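Autosomal distal intergenic peaks of CEH-8 are its sites outside protein-coding genes and their upstream 1000 bp, on the 5 autosomes of the nematode *Caenorhabditis elegans*. A peak of the authors' optimal IDR list was taken as distal when its summit, the position of highest signal, lay in no protein-coding gene and not in the 1000 bp upstream of any protein-coding gene start. The rule found 329 such peaks, which were 22.3% of the 1475 autosomal IDR peaks and 17.4% of all 1891. The other 1146 autosomal peaks comprised 708 in promoters (the 1000 bp upstream of a start), 301 in introns and 137 in exons. IDR, the irreproducible discovery rate, scores how alike peaks rank in replicates, and the optimal list was derived by the authors from the peak lists of both replicates and of their pooled reads.

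The worms were of strain OP760, which has the unc-119(tm4063) mutation and the transgene wgIs760. In this stably carried transgene a ceh-8::TY1::EGFP::3xFLAG fusion, which tags CEH-8 at its C-terminal end, stands together with the rescue copy unc-119(+). Chromatin of whole L1 larvae of both sexes, 6 hours old and starved after bleaching, was sonicated to fragments of 200 to 800 bp and precipitated with an anti-GFP antibody. There were 2 biological replicates of this 1 group, each called against a control alignment, so no treatment or genotype could be compared. Each replicate list held 30000 peaks, read depth is unknown from the files, and signal is the authors' value, whose scale no header states. It ranks peaks within a list, so values of the replicates are set side by side without a fold. The tagged gene itself held a strong peak (rank 23 by signal), 1 of the 329 distal peaks lay within 20000 bp of it, and whole larvae do not show which cells a peak comes from.

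CEH-8 is a homeodomain protein of the paired-like class, and its gene is a marker of the RIA interneurons of the head. Homeodomains contact short AT-rich cores such as TAAT, and paired-class proteins can bind as dimers to a pair of such cores in inverted orientation. The worm genome is compact, most mapped regulatory sites lie close upstream of genes, and sites further out are candidates for enhancers, for unannotated starts or for the promoters of non-coding RNA genes.

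The letters under selected summits are shown first, each as the 101 bases centred on the summit, on the plus strand of ce11 (the same assembly as WBcel235), read from the RefSeq sequence. These windows were chosen by signal, motif or nearest gene and do not stand for the distal peaks as a whole. The 5 peaks below were found in both replicates, as defined further on, and hold TAAT and ATTA as an inverted pair 3 bases apart. This arrangement was present at 8 of the 329 distal summits (2.43%) and absent from all their flanks, and lay at 1.75% of other autosomal summits. Capitals mark the pair, together with any TAATTA or TAATTG.
Rank 216, nearest start F32D8.1, chrV:10874594-10874694, plus strand: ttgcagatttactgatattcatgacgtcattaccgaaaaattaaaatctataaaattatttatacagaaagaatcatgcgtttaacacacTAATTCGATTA
Rank 268, nearest start vab-2, chrIV:3770920-3771020, plus strand: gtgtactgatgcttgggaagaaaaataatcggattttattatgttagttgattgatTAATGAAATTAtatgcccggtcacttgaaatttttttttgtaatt
Rank 375, nearest start pho-4, chrII:5239477-5239577, plus strand: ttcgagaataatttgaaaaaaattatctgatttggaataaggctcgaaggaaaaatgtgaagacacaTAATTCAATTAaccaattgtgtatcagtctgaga
Rank 462, nearest start K08B12.3, chrV:6232240-6232340, plus strand: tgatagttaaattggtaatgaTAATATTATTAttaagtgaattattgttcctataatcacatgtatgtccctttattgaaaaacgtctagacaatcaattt
Rank 837, nearest start Y22D7AL.3, chrIII:1639495-1639595, plus strand: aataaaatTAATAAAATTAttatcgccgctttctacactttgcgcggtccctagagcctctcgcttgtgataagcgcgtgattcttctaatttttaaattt
The pair began at different distances from the summit, from 42 bp to its left at rank 837 to 40 bp to its right at rank 216. The 3 spacer bases differed among these 5 sites, and at rank 375 the letters of the pair overlapped a reverse match of TAATTG.

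Single homeodomain cores of 6 letters are shown next, at 3 of the 4 named distal peaks nearest to chemoreceptor and homeobox genes. The fourth, at ceh-48, held none. Capitals mark TAATTA or TAATTG on either strand.
Rank 415, nearest start srab-23, chrV:2037223-2037323, plus strand: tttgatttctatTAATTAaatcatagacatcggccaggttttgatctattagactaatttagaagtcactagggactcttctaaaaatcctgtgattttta
Rank 132, nearest start srg-38, chrV:11156739-11156839, plus strand: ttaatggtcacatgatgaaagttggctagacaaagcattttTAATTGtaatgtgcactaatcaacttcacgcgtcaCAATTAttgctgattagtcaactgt
Rank 102, nearest start ceh-32, chrV:11706505-11706605, plus strand: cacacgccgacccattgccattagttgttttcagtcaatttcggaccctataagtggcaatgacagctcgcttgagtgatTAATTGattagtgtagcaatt
The window nearest to srg-38, a chemoreceptor gene, held TAATTG on both strands.

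Of the 12 strongest distal peaks 6 held GAGAGA, a GA repeat, within 50 bp of the summit. Of these, 4 are shown, with GAGAGA on either strand in capitals.
Rank 2, nearest start nhr-88, chrII:2974103-2974203, plus strand: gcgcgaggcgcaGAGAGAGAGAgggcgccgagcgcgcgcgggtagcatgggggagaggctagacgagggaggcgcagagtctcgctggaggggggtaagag
Rank 44, nearest start F54F12.1, chrIII:13061235-13061335, plus strand: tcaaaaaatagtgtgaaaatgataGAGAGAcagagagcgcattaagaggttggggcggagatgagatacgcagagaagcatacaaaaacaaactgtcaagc
Rank 74, nearest start hif-1, chrV:20778361-20778461, plus strand: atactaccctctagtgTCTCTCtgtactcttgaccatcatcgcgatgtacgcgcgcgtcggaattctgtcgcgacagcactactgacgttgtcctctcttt
Rank 76, nearest start T04C4.3, chrIV:2219577-2219677, plus strand: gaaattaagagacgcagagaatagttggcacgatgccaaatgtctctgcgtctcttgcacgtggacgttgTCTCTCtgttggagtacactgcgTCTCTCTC
Matches overlap in the long GA run at rank 2 and at the right edge of the rank 76 window.

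Other strong distal peaks held neither a homeodomain core nor GAGAGA, and 4 of them are shown without capitals.
Rank 31, nearest start H37A05.4, chrV:13646080-13646180, plus strand: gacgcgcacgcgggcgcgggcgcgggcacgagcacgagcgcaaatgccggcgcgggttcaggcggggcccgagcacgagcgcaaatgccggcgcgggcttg
Rank 36, nearest start cmd-1, chrV:1151460-1151560, plus strand: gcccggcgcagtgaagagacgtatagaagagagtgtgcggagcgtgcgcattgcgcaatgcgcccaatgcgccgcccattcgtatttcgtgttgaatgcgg
Rank 46, nearest start ins-13, chrII:5543520-5543620, plus strand: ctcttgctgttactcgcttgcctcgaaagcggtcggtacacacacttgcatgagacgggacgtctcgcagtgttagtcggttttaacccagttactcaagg
Rank 61, nearest start F58D12.3, chrV:14055159-14055259, plus strand: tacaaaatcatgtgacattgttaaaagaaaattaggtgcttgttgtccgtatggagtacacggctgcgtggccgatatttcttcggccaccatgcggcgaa
The window of rank 31 had the highest G and C content among distal peaks (78.2%, equalled at rank 812) and that of rank 36 lay over the long non-coding RNA gene linc-128.

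The replicates were asked next whether they shared the distal sites. A peak counts here as found in both when one of the 1891 strongest peaks of each replicate had its summit within 200 bp. This held for 169 of the 329 distal peaks, or 51.4% (exact 95% interval 45.8% to 56.9%), against 683 of the 1146 other autosomal peaks, or 59.6% (56.7% to 62.5%), with 58% over all IDR peaks. Distal peaks were found in both less often (Fisher's exact two-sided test, Benjamini-Hochberg adjusted p = 0.014 over 3 shares). Promoter peaks had the highest share among the autosomal classes (68.1%), intronic peaks had 57.8%, exonic peaks had 19.7%, and distal peaks on X had 61.3%. Against promoter peaks alone the difference of the distal peaks also passed (exact adjusted p = 9.07e-07). With the 5000 strongest peaks of each replicate the direction turned, to 84.8% of distal against 82.8% of other autosomal peaks (exact adjusted p = 0.451), and the call was lost under 5 of the other 11 alternatives.

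**Figure D1:**
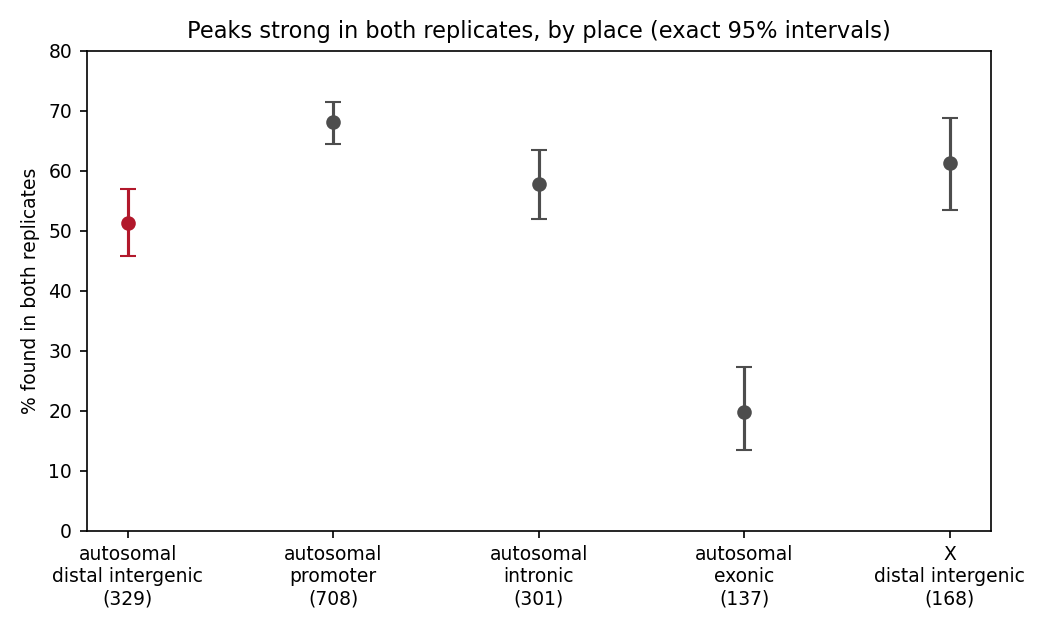
Percent of IDR peaks found in both replicates (vertical axis) for autosomal distal peaks in red and for 4 other classes in grey, with the number of peaks under each name and exact 95% binomial intervals as bars. Distal autosomal peaks (51.4%) sit below promoter peaks (68.1%) and above exonic peaks (19.7%).

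Replicate 1 alone accounted for 84 distal peaks (25.5%), replicate 2 alone for 67 (20.4%), and 9 had no strong summit in either. Over all IDR peaks replicate 1 alone had 21.4% and replicate 2 alone 18.2%, and 46 of the 1891 had no strong summit in either. At the 169 found in both, signal ran between 50.5 and 841 in replicate 1 (median 77.5) and between 45.5 and 261 in replicate 2 (median 74.9). At the 84 found in replicate 1 alone, the median signal was 75.2 in replicate 1, and it was 38.9 in replicate 2 for those with a peak there. Within the replicate 1 list these peaks were thus about as strong as the shared ones, while their low replicate 2 signal follows from how they were defined. The 67 found in replicate 2 alone had a median signal of 59.7 in replicate 2, with 41.4 in replicate 1. Of the distal peaks 4 lacked any replicate 1 peak within 200 bp and 19 lacked a replicate 2 peak at any rank, against 6 and 84 of the 1146 other autosomal peaks and 11 and 116 of all 1891. The imbalance was also present over the whole list, and all 19 were among the strongest of replicate 1. The 19 include the summit of rank 544, listed with the same interval as rank 2, whose own summit did have a replicate 2 peak within 200 bp. Across the 306 distal peaks with a peak in both lists, Spearman's rho of the signals was 0.27. It was 0.359 over 278 intronic, 0.636 over 685 promoter, -0.29 over 93 exonic and 0.521 over 162 X distal peaks. These are descriptions across peaks of the same 2 libraries, which are not independent.

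**Figure D2:**
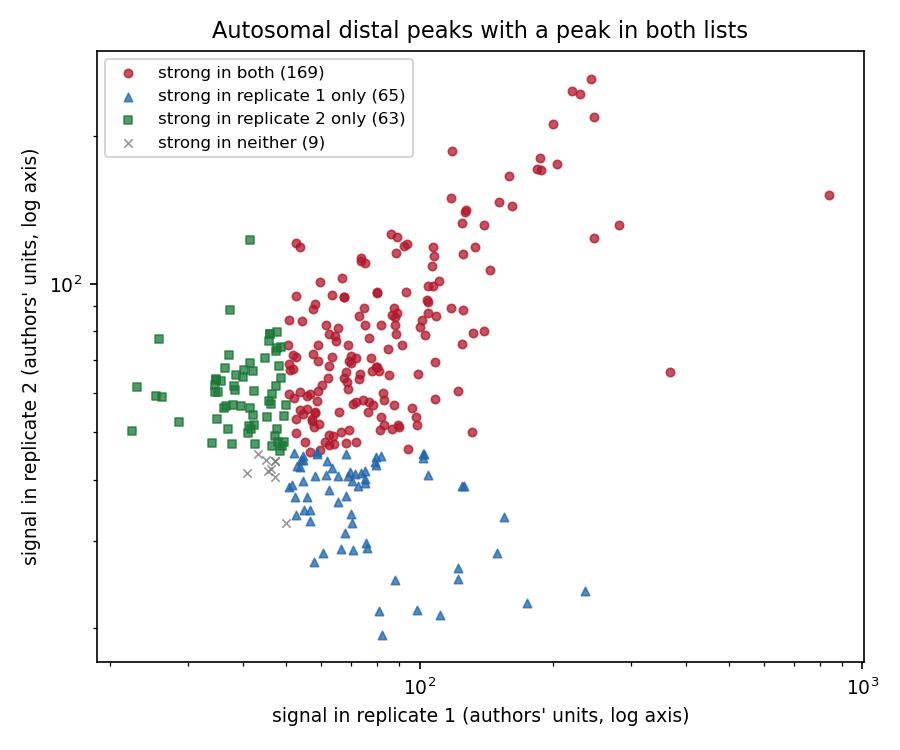
Authors' signal in replicate 2 (vertical, log axis) against replicate 1 (horizontal, log axis) for the 306 autosomal distal peaks with a peak within 200 bp in both lists, marked by whether the peak was among the 1891 strongest of both, one or neither. Points strong in both lie at the upper right, and the point furthest to the right (841 in replicate 1) is one of them. Points strong in replicate 1 alone extend to the right at low replicate 2 signal.

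By signal the distal peaks spanned the whole list, from 88.3 to 913 with a median of 123, against a median of 131 for the other autosomal peaks. Of the distal peaks 152 (46.2%) were above the median of the IDR list, against 595 other autosomal peaks (51.9%) and, by construction, 50% of the list. This difference did not pass (Fisher's exact two-sided adjusted p = 0.0699). It passed against promoter peaks alone, 46.2% against 58.3% (exact adjusted p = 4.41e-04). Of the 50 strongest IDR peaks 6 were distal, and of the 100 strongest 13.

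The strongest distal peak lay on chromosome II (chrII:2973950-2974352), 2486 bp upstream of nhr-88, a nuclear hormone receptor gene. It ranked 2 among all IDR peaks, with a signal of 841 in replicate 1, where it was the strongest of all, and 152 in replicate 2, where it ranked 117. The strength of this site was thus mostly that of replicate 1. The next, at rank 31 (chrV:13646019-13646229) near H37A05.4, had a signal of 576 in replicate 1 and no replicate 2 peak within 200 bp. The peak of rank 78 near cdk-14, a kinase gene, likewise had 348 in replicate 1 and none in replicate 2. All other peaks among the 12 strongest were found in both replicates.

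Several of these shared sites ranked high in both lists. At rank 36 (chrV:1151437-1151625), 4761 bp upstream of the calmodulin gene cmd-1 and over linc-128, signal was 244 in replicate 1 (rank 57) and 261 in replicate 2 (rank 30). At rank 42 (chrI:16928-17115), signal was 229.9 in replicate 1 (rank 65) and 243 in replicate 2 (rank 37). This peak lay between nlp-40, a neuropeptide gene, and rcor-1, 177 bp and 470 bp past their facing 3′ ends, and 5519 bp from the nlp-40 start. At rank 44 (chrIII:13061187-13061369), 5843 bp upstream of F54F12.1, signal was 221 in replicate 1 (rank 70) and 246 in replicate 2 (rank 36). The peak of rank 46 (chrII:5543454-5543624), nearest to the start of the insulin-like gene ins-13, had 248 in replicate 1 (rank 53) and 218 in replicate 2 (rank 47). It lay 28 bp from sls-2.2, one of the genes for the spliced leader RNA that is joined to messages from operons. A second distal summit, of rank 171, lay 199 bp away and near sls-2.2 and sls-2.3.

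Of the remaining strong sites 4 also ranked high in both lists. Upstream of hif-1, the hypoxia-inducible factor gene, the peak of rank 74 (chrV:20778236-20778585) had a signal of 187 in replicate 1 (rank 104) and 180.4 in replicate 2 (rank 72). Upstream of T04C4.3 the peak of rank 76 (chrIV:2219571-2219663) had 204 in replicate 1 (rank 83) and 175 in replicate 2 (rank 80). That of rank 77 (chrI:8786797-8787146), 1557 bp upstream of mfb-1, had 184 in replicate 1 (rank 110) and 171 in replicate 2 (rank 85). All 3 lay between ranks 72 and 110 of their lists. At rank 61 (chrV:14055114-14055342) near F58D12.3, signal was 200.4 in replicate 1 (rank 87) and 211 in replicate 2 (rank 52). The peak of rank 63 (chrIII:4282098-4282447), 2049 bp upstream of sup-26, which encodes an RNA-binding protein, stood apart with 282 in replicate 1 (rank 38) and 132 in replicate 2 (rank 168). Close pairs of distal summits were few. Only 3 pairs lay within 300 bp of each other: at nhr-88, at ins-13 and at K08F11.1 (ranks 600 and 759). The summits of ranks 2 and 544, at nhr-88, were listed with the same interval, so that the distal peaks are not all separate sites. Those of ranks 600 and 759 had the same strongest nearby peak in replicate 1 (rank 1075) and in replicate 2 (rank 392). Those of ranks 46 and 171, at ins-13, had the same one in replicate 1 (rank 53).

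Base composition at the summits was examined because the replicates differ in it. Within 50 bp of the summit, 96 distal peaks (29.2%) were over 50% G or C, against 441 other autosomal peaks (38.5%), with 36.2% over all IDR peaks. Fewer distal peaks were GC-rich (Fisher's exact two-sided adjusted p = 0.00665). The median content was 42.6% at distal and 46.5% at other autosomal summits. Distal summits stood above their surroundings, since the flanks of distal peaks had a median of 35.6%, and 4.13% of the 188445 non-overlapping 101-bp windows in autosomal distal sequence were over 50%. Distal peaks found in replicate 1 alone had a median of 47.5%, those in replicate 2 alone 41.6%, and those in both 41.6%. The 19 without a replicate 2 peak had a median of 56.4%. The part of base composition in the replicate differences was not tested. The call was lost in windows of 100 bp to each side (22.8% against 25%), among peaks found in both (25.4% against 33.2%) and against promoter peaks alone (29.2% against 33.8%), with exact adjusted p of 0.467, 0.159 and 0.154. Repeat-masked letters filled over 50 bases of the window at 10.6% of distal and 11.2% of other autosomal summits, against 36.8% of all distal windows.

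Homeodomain cores were more frequent at distal summits than at the other autosomal ones. TAATTA lay within 50 bp of 37 distal summits (11.2%, exact 95% interval 8.04% to 15.2%), against 58 of the other autosomal peaks (5.06%, 3.87% to 6.49%), with 6.93% over all IDR peaks. The difference passed (Fisher's exact two-sided adjusted p = 0.00121 over 10 motifs) and passed under all 12 alternatives run. Among peaks with at most 50% G or C it was 15.9% against 7.8%. TAATTG lay at 48 distal summits (14.6%) against 9.25% of other autosomal ones, with 11.6% over all IDR peaks (exact adjusted p = 0.0151). That call was lost under 5 of 12 alternatives, among them peaks with at most 50% G or C (19.3% against 14%, exact adjusted p = 0.118). The inverted pair lay at 8 distal summits (2.43%) and at 20 other autosomal ones (1.75%), with 1.8% over all IDR peaks, a difference that did not pass (exact adjusted p = 0.613). At X distal summits, TAATTA was found at 11.3%, TAATTG at 17.3% and the inverted pair at 2.38%. Of all autosomal distal windows 5.02% held TAATTA, 8.41% TAATTG and 0.482% the pair.

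Against the flanks of the same distal peaks, taken 250 bp to either side and adding up to the same length, TAATTA lay at 37 summits and in 18 flanks. This passed (exact binomial test on the 51 peaks with it in only one of the 2, adjusted p = 0.0274 over 10 motifs). The call was lost under 5 of 11 alternatives, 4 of which hold fewer peaks or a narrower window and 1 of which is the 324 distal peaks among the strongest of replicate 1 alone (7.72% against 5.86%, exact adjusted p = 0.614). The inverted pair lay at 8 summits and in 0 flanks, which allows a share of up to 0.912% (exact adjusted p = 0.026). That call too was lost under 5 of 11 alternatives, with exact adjusted p between 0.104 and 0.25, and in replicate 1 alone the pair lay at 2.16% of summits and in 0.309% of flanks. TAATTG, at 48 summits and in 31 flanks, did not pass (exact adjusted p = 0.0996). It passed under 5 of 11 alternatives, among them 100 bp to each side (27.7% against 16.7%, exact adjusted p = 0.00256) and either replicate alone (15.5% against 9.29% in replicate 2, 16.4% against 7.72% in replicate 1). Any of the 3 homeodomain sequences was present at 87 distal summits (26.4%).

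**Figure D3:**
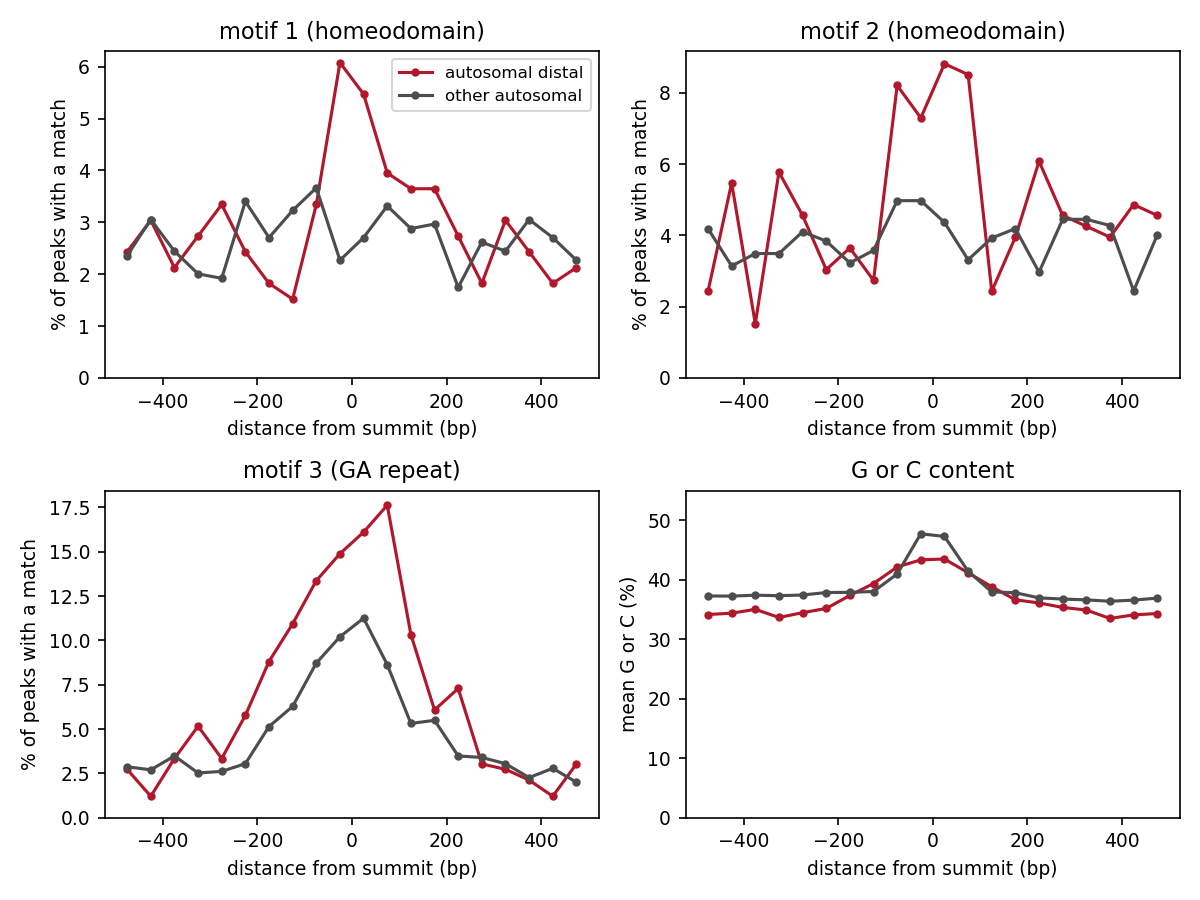
Percent of peaks with a match (TAATTA as motif 1, TAATTG as motif 2, GAGAGA as motif 3) and mean G or C content, in bins of 50 bp by distance from the summit, for autosomal distal peaks in red and other autosomal peaks in grey. Motif 1 reaches 6.08% of distal peaks in the bin just left of the summit and 2.43% in the bin furthest to the left, and motif 3 rises in both sets.

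The distal peaks with TAATTA had signals between 88.3 and 269 with a median of 134, against a median of 123 for the 292 distal peaks without it. The first in rank was 166, and none of the 12 strongest held it. With 12 peaks that allows a share of up to 25%, which includes the 11.2% of all distal peaks, so it does not set the strongest apart. Of the 37, 24 (64.9%) were found in both replicates, against 145 of the 292 without it (49.7%). They were among the strongest of replicate 2 in 89.2% of cases and of replicate 1 in 75.7%, against 69.5% and 77.1% without TAATTA. By place of finding, TAATTA was present at 14.2% of distal peaks found in both, at 4.76% of those in replicate 1 alone and at 13.4% of those in replicate 2 alone. These splits were chosen after the values were seen and were not tested. Base composition moved with them, with a median of 31.7% G or C where TAATTA was present and 44.6% where it was not.

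Of the 8 distal peaks with the inverted pair, 5 were found in both replicates and are those printed above. At rank 216 (chrV:10874469-10874818), 6188 bp upstream of F32D8.1, signal was 125 in replicate 1 (rank 285) and 115 in replicate 2 (rank 246). At rank 268 (chrIV:3770795-3771144), 4144 bp upstream of the ephrin gene vab-2, it was 108 in replicate 1 (rank 391) and 114 in replicate 2 (rank 252). At rank 375 (chrII:5239352-5239701), 1061 bp upstream of pho-4, an acid phosphatase gene, it was 104 in replicate 1 (rank 429) and 92.6 in replicate 2 (rank 404). These 3 lay in the upper part of both strong sets. The peak of rank 462 (chrV:6232115-6232464) near K08B12.3 had 53.7 in replicate 1 (rank 1661) and 119 in replicate 2 (rank 223), and that of rank 837 (chrIII:1639370-1639719) near Y22D7AL.3 had 73.5 in replicate 1 (rank 907) and 65.5 in replicate 2 (rank 862). The other 3 pairs lay near zfh-2, in replicate 1 alone, and near exc-4 and rskn-2, in replicate 2 alone.

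GAGAGA was the most frequent of the 10 motifs at distal summits. It lay at 92 of them (28%) and in the flanks of 34 (exact binomial adjusted p = 2.61e-07), and this held under all 11 alternatives. Other autosomal peaks had it at 20.2% and X distal peaks at 19%, with 21.6% over all IDR peaks and 5.56% of distal windows. The difference between the classes passed (Fisher's exact adjusted p = 0.01) and was lost under 4 of 12 alternatives. Of the 87 distal summits with a homeodomain sequence 7 also held GAGAGA, and 157 distal summits (47.7%) held neither. This overlap was not counted at other autosomal peaks, so it is not shown to be particular to distal ones. Base composition differed too, with a median of 47% G or C at distal summits with GAGAGA and 31.7% at those with TAATTA. Its part in the overlap was not tested. Where GAGAGA was present, 56.5% of distal peaks were found in both replicates, against 49.4% without it.

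WGATAR and CAGCTG separated distal from other autosomal summits without a called difference between summit and flanks. WGATAR, the site of GATA factors (W is A or T, R is A or G), lay at 66 distal summits (20.1%) and at 11.8% of other autosomal ones, with 14% over all IDR peaks (Fisher's exact adjusted p = 0.00121). The flanks of the distal peaks held it as often, in 69 cases (exact binomial adjusted p = 0.942), as did 19.8% of all distal windows. From replicate 2 alone the difference between the classes was 20.1% against 15% and did not pass (exact adjusted p = 0.0802). X distal summits held WGATAR at 17.3% and CAGCTG at 1.79%. CAGCTG, an E-box, was rare at distal summits, with 4 of them (1.22%) against 4.89% of other autosomal ones and 3.91% of all IDR peaks (exact adjusted p = 0.00474), and this call was lost under 5 of 12 alternatives. A run of 7 T was instead rarer at summits than in flanks, with 29 distal summits against 66 flanks (exact binomial adjusted p = 0.00037). This did not pass with at most 50% G or C (12% against 20.2%, exact adjusted p = 0.0542). The T run did not separate the classes, at 8.81% of distal and 7.77% of other autosomal summits (Fisher's exact adjusted p = 0.627), with 8.04% over all IDR peaks. In all, 5 of 10 motifs passed between the classes and 4 of 10 against flanks, and CCGCCC, TTGCGCAA and TGACTCA passed neither test. None of the 10 was found at 112 distal summits (34%).

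**Figure D4:**
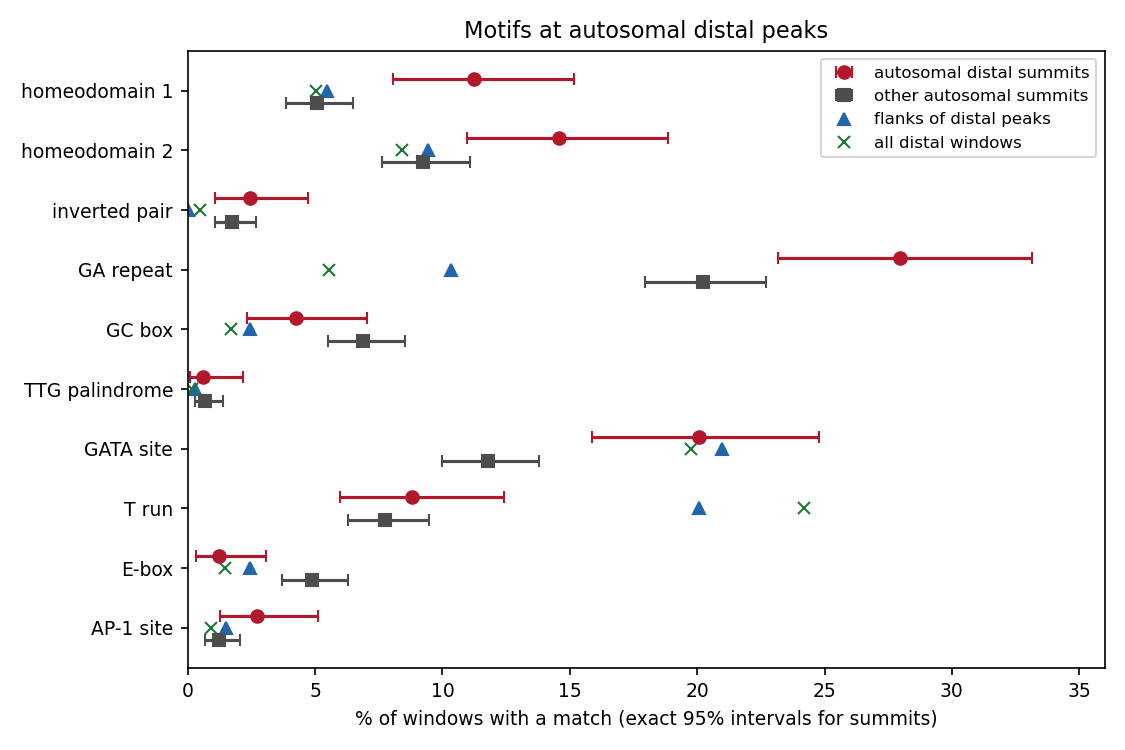
Percent of 101-bp windows with a match (horizontal axis) for 10 motifs, at autosomal distal summits (red circles) and other autosomal summits (grey squares) with exact 95% intervals, in the flanks of the distal peaks (blue triangles) and in all autosomal distal windows (green crosses). Homeodomain 1 is TAATTA and 2 is TAATTG, GC box is CCGCCC, the TTG palindrome is TTGCGCAA, T run is 7 T, E-box is CAGCTG and AP-1 site is TGACTCA. GA repeat (GAGAGA) stands at 28% of distal summits.

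The distal peaks were spread over 19.4 Mb of distal sequence, 23.5% of the autosomes, at 17 per Mb (exact 95% Poisson interval 15.2 to 18.9). This compares with 29.4 per Mb of X distal sequence (25.1 to 34.1), 45.2 per Mb of autosomal promoter and 9.22 per Mb of gene body. Chromosomes I and III were densest, with 68 peaks or 24.1 per Mb (18.7 to 30.6) and 62 or 22.2 (17 to 28.4). Chromosome II had 66 peaks or 18.4 per Mb, chromosome V 76 or 14.7, and chromosome IV 57 or 11.4 (8.6 to 14.7). The share found in both ranged between 47% on II and 56.5% on III. In the centres of chromosomes (33.3% to 66.7% of their length) there were 19.9 per Mb (16.4 to 23.8) and in the ends 15.7 (13.7 to 18), intervals that overlap.

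The nearest protein-coding start was a median of 2299 bp from a distal summit (674 to 11620 bp). Of the summits 249 (75.7%) lay upstream of that start, a share that follows in part from the rule, which removed summits inside genes. Within 2000 bp of a start there were 134, and beyond 5000 bp 41. The rule set no limit at 3′ ends, and 77 distal summits (23.4%) lay within 1000 bp of the 3′ end of a flanking gene. Density differed with the orientation of the flanking genes, a difference that was not tested. Between divergent genes, where both starts face the gap, there were 112 peaks or 20.1 per Mb (16.5 to 24.2). Between tandem genes there were 186 or 17.9 per Mb (15.5 to 20.7), and between convergent genes, where 3′ ends face each other, 30 or 8.78 per Mb (5.92 to 12.5). The share found in both showed no order with distance, at 54.5% within 2000 bp, 48.2% up to 3000 bp, 49.3% up to 5000 bp and 51.2% beyond. TAATTA was present at 9.7%, 11.8%, 15.9% and 7.32% of these peaks, the last being 3 of 41.

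**Figure D5:**
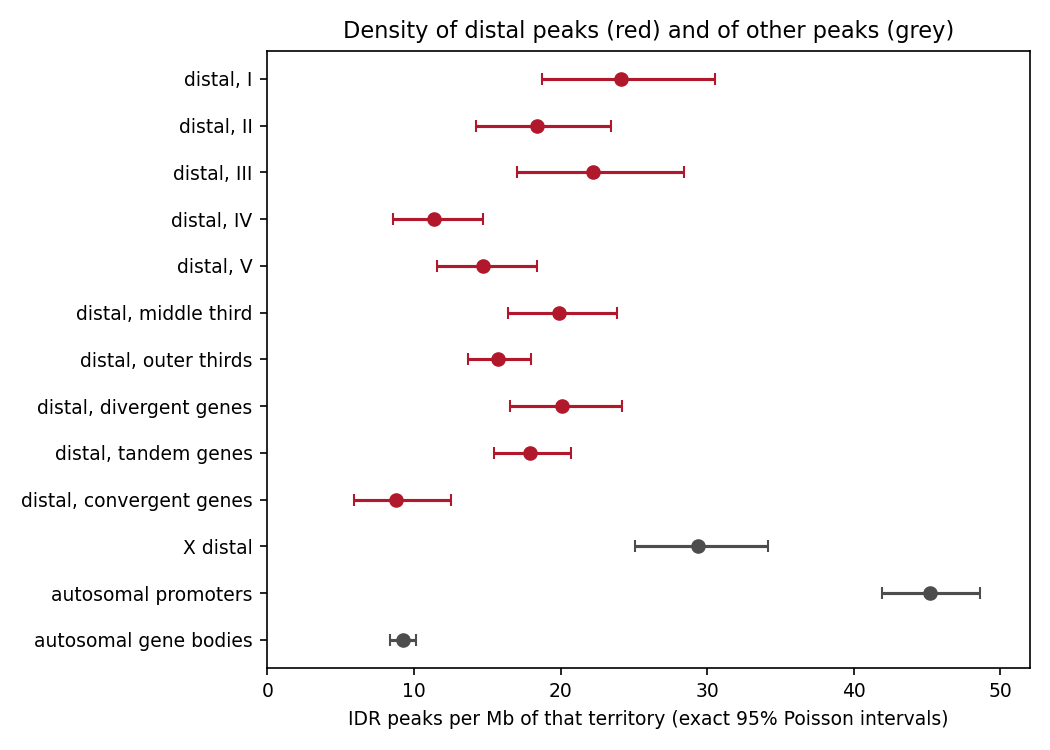
IDR peaks per Mb (horizontal axis) of autosomal distal sequence by chromosome, by place along the chromosome and by orientation of the flanking genes (red), and of X distal sequence, autosomal promoters and autosomal gene bodies (grey), with exact 95% Poisson intervals. Convergent gaps (8.78 per Mb) lie below divergent (20.1) and tandem ones (17.9).

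The limit of 1000 bp cut through a continuous range. Just outside it, 31 distal peaks lay 1000 to 1200 bp upstream of a start, with a median signal of 143, and 20 were found in both. Just inside, 46 promoter peaks lay 800 to 1000 bp upstream, with a median of 121, and 22 were found in both. The distal peaks nearest to the limit were those of aex-6 (1003 bp), which encodes a Rab27 GTPase, dhs-8 (1027 bp) and R05C11.2 (1031 bp). The promoter peaks nearest to it were those of gpa-14 (998 bp), otub-2 (994 bp) and ric-7 (993 bp).

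The genes nearest to distal peaks were set against gene lists by name. Neuropeptide genes, including insulin-like ones, were nearest to 6 distal peaks (1.82%), all found in both replicates, and to 6 other autosomal peaks (0.524%). Besides nlp-40 and the pair at ins-13 they were ins-30, ins-6 and ins-4. The summits of ranks 46 and 171 at ins-13 had the same strongest replicate 1 peak within 200 bp (rank 53), so they are not separate findings there. Only the peak at ins-4 lay upstream of its nearest start, by 2218 bp. Those at nlp-40, ins-13, ins-30 and ins-6 lay past the 3′ end of the gene. At ins-30 signal was 92.2 in replicate 1 and 119 in replicate 2, at ins-6 57.5 in replicate 1 and 88.9 in replicate 2, and at ins-4 69.4 in replicate 1 and 69.6 in replicate 2. Nuclear hormone receptor genes were nearest to 9 distal peaks (2.74%), 4 found in both, against 8 other autosomal peaks (0.698%). The 9 include the summits of ranks 2 and 544 at nhr-88, which were listed with the same interval. Beside nhr-88 the highest was nhr-20 (rank 372, signal 105 in replicate 1 and 91.7 in replicate 2).

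Homeobox genes were nearest to 5 distal peaks (1.52%) and 10 other autosomal peaks (0.873%). The Six-class gene ceh-32 had the strongest (rank 102, chrV:11706480-11706617), 1155 bp upstream, with a signal of 160 in replicate 1 and 166 in replicate 2. The ONECUT gene ceh-48 followed at rank 897 with 76.7 in replicate 1 and 55 in replicate 2, and ceh-58, ceh-62 and ceh-43 had peaks found in replicate 2 alone. Genes put in the chemoreceptor list by name, mostly by a prefix of sr or str, were nearest to 15 distal peaks (4.56%). Of these, 10 were found in both, against 39 other autosomal peaks (3.4%) in the list. The 15 include src-1, which shares the prefix but is not a chemoreceptor gene, and the 39 were counted by the same prefix. The strongest were those of srg-38 (rank 132, signal 151 in replicate 1 and 146 in replicate 2) and srab-23 (rank 415, signal 101 in replicate 1 and 84.2 in replicate 2).

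Other lists had few or no distal peaks. Collagen genes were nearest to 1 distal peak, that of col-108 in replicate 2 alone (0.304%), against 29 other autosomal peaks (2.53%). F-box genes were nearest to 1, that of fbxa-55 (rank 322), with a signal of 266 in replicate 1 and none in replicate 2, against 6 other autosomal peaks (0.524%). Ribosomal protein genes were nearest to 0 distal and 20 other autosomal peaks (1.75%), and the listed RIA genes to 0 and 6. The 0 for RIA genes depends on counting by nearest start. The distal peak of rank 708 lay 2327 bp upstream of ceh-8, with the start of fitm-2 nearer. That of rank 577 lay 3407 bp upstream of gar-3, also a listed RIA gene, with the start of Y40H4A.2 nearer. C-type lectin and histone genes were nearest to 0 distal peaks, against 1 and 2. These are counts of nearest genes, and no list was tested.

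The rule used protein-coding genes only, so distal peaks could lie at other genes. In all, 33 (10%) lay in an annotated non-coding gene or pseudogene, against 7.77% of other autosomal peaks. Of these 18 (5.47%) lay in genes listed as ncRNA, against 7.07% of other autosomal peaks, and 4 (1.22%) in lincRNA genes, against 0.175%. Pseudogenes held 9 distal peaks (2.74%) and 2 other autosomal ones (0.175%). The 9 were seen in replicate 1 alone in 6 cases, in replicate 2 alone in 2 and in both in 1, and had a median of 64.4% G or C (33.7% to 78.2%). Within 500 bp of a small RNA gene there were 20 distal peaks (6.08%), 10 of them found in both, against 96 other autosomal peaks (8.38%). Of the 20, 12 were near a snoRNA gene, whose products guide RNA modification, and 5 of these 12 were found in both. With the 1000 bp upstream of genes of every biotype also removed, 235 distal peaks were left, and 13.6% of them held TAATTA, against 5.08% of the other autosomal peaks (Fisher's exact adjusted p = 8.31e-05).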

How the data were processed

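Narrow peaks on ce11 were called by the authors in both replicates, singly and together, against a control, per the file headers, and the optimal IDR list was derived from those 3 lists. The authors' deposited signal ranked peaks within each list and was not rescaled. No aligner, peak caller or IDR cutoff is named in the labels or headers.

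Summits were set against Ensembl release 115 gene models of WBcel235. Shares were compared with Fisher's exact two-sided test and motifs with their flanks by an exact binomial test on discordant peaks, adjusted by Benjamini-Hochberg (threshold 0.05). The flanks, being 2 pieces, have slightly fewer start positions for a motif. Motifs were sought on both strands, and the 3 homeodomain sequences can overlap. Intervals take each peak as independent, so that they hold counting error alone. Peaks of the 2 replicates share no labelled batch, and with 1 group no block was fitted.

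The named peaks are the 12 strongest members, the strongest 8 found in both, those with the inverted pair found in both, those nearest to the limit of 1000 bp and up to 2 for each gene list. Members and lists were chosen with earlier results of these data known. The steps were tested on simulated data. Python 3.11.15, numpy 2.4.6, scipy 1.17.1, pandas 2.3.3 and matplotlib 3.10.9 were used.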

Additional observations from a re-analysis of the deposited data

How the results depend on the processing

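The number of distal peaks was 329, and 218 with a limit of 2000 bp or 152 among IDR peaks above the median signal. The share found in both kept its direction but did not pass with a limit of 500 bp (54.8%), genes of every biotype (51.5%), IDR peaks above the median (82.9%) overlap of 50% of each peak (48.9%) or replicate 1 alone as the source (52.5% against 57.4%). It turned with the 5000 strongest peaks (84.8% of distal against 82.8% of other autosomal peaks). Among IDR peaks above the median signal, the share above the median of that upper set passed (41.4% against 53.4%). From replicate 2 alone the share above the median of its own list passed too (44.9% against 52.1%). The share above the IDR median also passed against promoter peaks alone (46.2% against 58.3%). The share over 50% G or C did not pass with 100 bp to each side (22.8%), among peaks found in both (25.4%) or against promoter peaks alone (29.2% against 33.8%). With one replicate alone as the source, the share over 50% G or C ran between 19.8% and 34.6%, and the share found in both between 52.5% and 53.3%. The share above the median signal of that replicate's own list ran between 44.9% and 45.4%, and the motifs passing between the classes between 2 and 5 of 10. Between the classes 2 motifs passed above the median signal, among peaks found in both and with at most 50% G or C. Against flanks 2 passed with 2000 bp, above the median, with 25 bp to each side and among peaks found in both. WGATAR, which passed against flanks in no setting, was above its flanks with 2000 bp (20.2% against 17%), genes of every biotype (22.1% against 20%), above the median (23.7% against 20.4%), from replicate 2 alone (20.1% against 18.9%), among peaks found in both (23.7% against 22.5%) and with at most 50% G or C (24.9% against 22.7%). The causes of these changes were not tested in any setting, including those with fewer peaks. The restrictions to peaks found in both, to at most 50% G or C and to promoter peaks were chosen after seeing the data. No paired analysis was possible because the samples form 1 group. Depth per sample is unknown and limits what the lists can show.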

Other observations

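Of the 37 distal peaks with TAATTA, 3 are named here that were chosen after their values were seen, with no list or test behind them. The peak of rank 1038, 2353 bp from daf-7, which encodes a TGF-β ligand of the dauer pathway, had a signal of 51.7 in replicate 1 and 67.1 in replicate 2 and was found in both. That of rank 172, 3859 bp from gpa-15, a G protein alpha subunit gene, had 118 in replicate 1 and 149 in replicate 2. The peak of rank 1480, 1387 bp from odr-3, a G protein alpha subunit gene needed for olfaction, had 46.2 in replicate 1 and 57 in replicate 2 and was strong in replicate 2 alone. All 3 stood higher in the replicate 2 list than in that of replicate 1, with ranks of 822, 120 and 1157 in replicate 2 and 1799, 338 and 2267 in replicate 1. The distal peak furthest from any protein-coding start, at 11620 bp from K01F9.2 (rank 850, signal 89.5 in replicate 1 and 51.7 in replicate 2), lay 141 bp from the microRNA gene cel-mir-80. A second, 9894 bp from Y37A1B.7 (rank 831, signal 108 in replicate 1 and 69.4 in replicate 2), lay 122 bp from cel-mir-52.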
